A study of Homo sapiens with 6 samples.

Results

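Ferritin and cellular iron handling are described here through 9 genes, FTH1, FTL, TFRC, SLC40A1, SLC11A2, HMOX1, NCOA4, ACO1 and IREB2, out of 58302 gene entries in the deposited table. They were chosen by name, with the fall of FTH1 after KMT2C depletion already known, so their differences between the groups are given as a description and not as a test. RNA was sequenced from Ker-CT cells, a human epidermal keratinocyte line immortalised with telomerase and CDK4. The siKMT2C group, 3 libraries, received siRNA against KMT2C, which encodes a histone H3 lysine 4 methyltransferase, and the siNC group, 3 libraries, received negative-control siRNA. Both groups were exposed for 24 h to the psoriasis-type cytokine mixture M5, with oncostatin M, TNF-α, IL-1α, IL-17A and IL-22 at 10 ng/ml apiece, so iron gene levels without cytokines were not measured. Ker-CT is a single line, and the labels name no separate donors or culture dates, so the spread between replicates may be partly technical.

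Cells store iron inside ferritin, a hollow shell built from heavy chains (FTH1), which oxidise iron, and light chains (FTL), which help form the mineral core. Iron enters bound to transferrin through the receptor TFRC, crosses the endosomal membrane through SLC11A2 (DMT1), and leaves the cell through ferroportin, SLC40A1. NCOA4 carries ferritin to the lysosome for breakdown, HMOX1 releases iron from haem, and the iron regulatory proteins ACO1 (IRP1) and IREB2 (IRP2) bind RNA hairpins called iron-responsive elements. When iron is scarce these proteins block translation of ferritin and stabilise the TFRC transcript. Much of this control acts on translation and protein turnover, which RNA levels do not show.

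The hairpins are shown because they join the ferritin chains and TFRC into one RNA-binding circuit. The longest transcript of each gene was searched, on its own strand only, for a bulged C, 5 stem bases, the loop CAGTGN and 5 bases that pair with the stem. Matches were found in 4 of the 9 genes. Such a match occurred in 217 of 12534 tested protein-coding genes (1.73%), and TFRC was the 1 gene with 4 or more. SLC40A1 was not among these tested genes. The 9 genes were chosen by name for iron handling, so the 2 shares are a description and not a test. FTH1 and FTL each had 1 match in the 5′ UTR, as did SLC40A1, and TFRC had 4 in the 3′ UTR. SLC11A2, HMOX1, NCOA4, ACO1 and IREB2 had no match to these letters. The search took 1 transcript per gene and 1 strict pattern, so elements of another form or in other transcripts are missed. SLC11A2 is listed here among transcripts with iron-responsive elements although it had no match. The matches in TFRC are likewise not a full count of its elements. The windows below are 30 bases long, from GENCODE 29 transcripts (GRCh38), with the bulged C and the loop in capitals; the TFRC matches are numbered in transcript order.
FTH1, chr11:61967573-61967602, minus strand, exon 1: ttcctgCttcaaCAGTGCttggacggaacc
FTL, chr19:48965335-48965364, plus strand, exon 1: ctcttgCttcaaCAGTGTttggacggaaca
TFRC hairpin 1, chr3:196050978-196051007, minus strand, exon 19: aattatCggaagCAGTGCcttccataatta
TFRC hairpin 2, chr3:196050574-196050603, minus strand, exon 19: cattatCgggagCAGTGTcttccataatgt
TFRC hairpin 3, chr3:196050509-196050538, minus strand, exon 19: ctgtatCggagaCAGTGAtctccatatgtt
TFRC hairpin 4, chr3:196050462-196050491, minus strand, exon 19: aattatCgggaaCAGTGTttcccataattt
The FTH1 and FTL windows share 26 of 30 bases, while the windows of FTH1 and SLC40A1 share 13 of 30.

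The libraries held 14409277 to 17539519 counts. KMT2C itself was at 32.0, 30.8 and 27.3 CPM (counts scaled to library size, here with TMM factors) in siKMT2C, against 87.9, 82.0 and 72.6 CPM in siNC. All 13 keratinocyte markers were detected. Without overlap, TP63 (log2 fold change -0.69) and ITGA6 (-0.51) were lower and COL17A1 (0.72) and PERP (0.62) higher in siKMT2C. The other keratinocyte markers overlapped, and edgeR called none of the 13. Of all genes tested, 24.1% did not overlap. Of 5 endothelial markers 3 were at 0, and the list had 5 counts in all. Of 7 melanocyte markers TYR, DCT and SOX10 were at 0 in every library, and the summed level was 6.97 to 8.93 CPM in siKMT2C and 7.96 to 15.7 CPM in siNC, mostly MITF. Of 9 blood cell markers PTPRC and CD3E were at 0, and the sum was 13.2 to 15.1 CPM in siKMT2C and 9.84 to 15.1 CPM in siNC, mostly CD68. CD14 averaged 0.209 CPM in siKMT2C and 1.00 CPM in siNC, with no overlap. The summed level of 7 fibroblast markers was 13.5 to 17.5 CPM in siKMT2C and 20.7 to 31.1 CPM in siNC, all 7 with at least 1 count. The part of these other-cell markers in the results below was not tested. The siNC replicate 3 library stood apart from the other siNC libraries. Its chi-square per gene was 50.3 and 73.4 against siNC replicates 2 and 1, which differed from each other by 17.4. Against siKMT2C replicate 3 it was lower, at 39.7. Mitochondrial counts were 4.83% in siNC replicate 3 and 5.02% in siKMT2C replicate 3, against 5.78% to 6.65% in the other libraries.

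FTH1 (ENSG00000167996, chromosome 11, 61959718 to 61967660, minus strand) was the most heavily counted of the iron genes in siNC and the one with the largest difference between the groups. It stood at 1166, 1030 and 1193 CPM in siKMT2C, against 2097, 2025 and 2224 CPM in siNC. Every siKMT2C library lay below every siNC library, and the spread within either group was small beside the gap. The means were 1130 ± 87.4 CPM in siKMT2C and 2115 ± 100.3 CPM in siNC (SD, n = 3 each). The log2 fold change was -0.91 (SE 0.11), which left 53.4% of the siNC level.

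FTL (ENSG00000087086, chromosome 19, 48965301 to 48966878, plus strand), the light chain, overlapped between the groups. Its levels were 1179, 1201 and 1034 CPM in siKMT2C and 1198, 1340 and 1171 CPM in siNC. Replicate 3 was lowest in both groups, and the log2 fold change of FTL was -0.12 (SE 0.12). The gene of mitochondrial ferritin, FTMT, had 0 counts in all 6 libraries.

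The balance of heavy to light chain transcripts was lower in all siKMT2C libraries than in any siNC library. Counts of FTH1 over counts of FTL were 0.989, 0.858 and 1.15 in siKMT2C, against 1.75, 1.51 and 1.90 in siNC. The ratio averaged 1.00 ± 0.148 in siKMT2C and 1.72 ± 0.196 in siNC (SD, n = 3 each), with no overlap. This ratio compares libraries within one pair of genes and does not depend on gene length or library scaling.

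**Figure D1:**
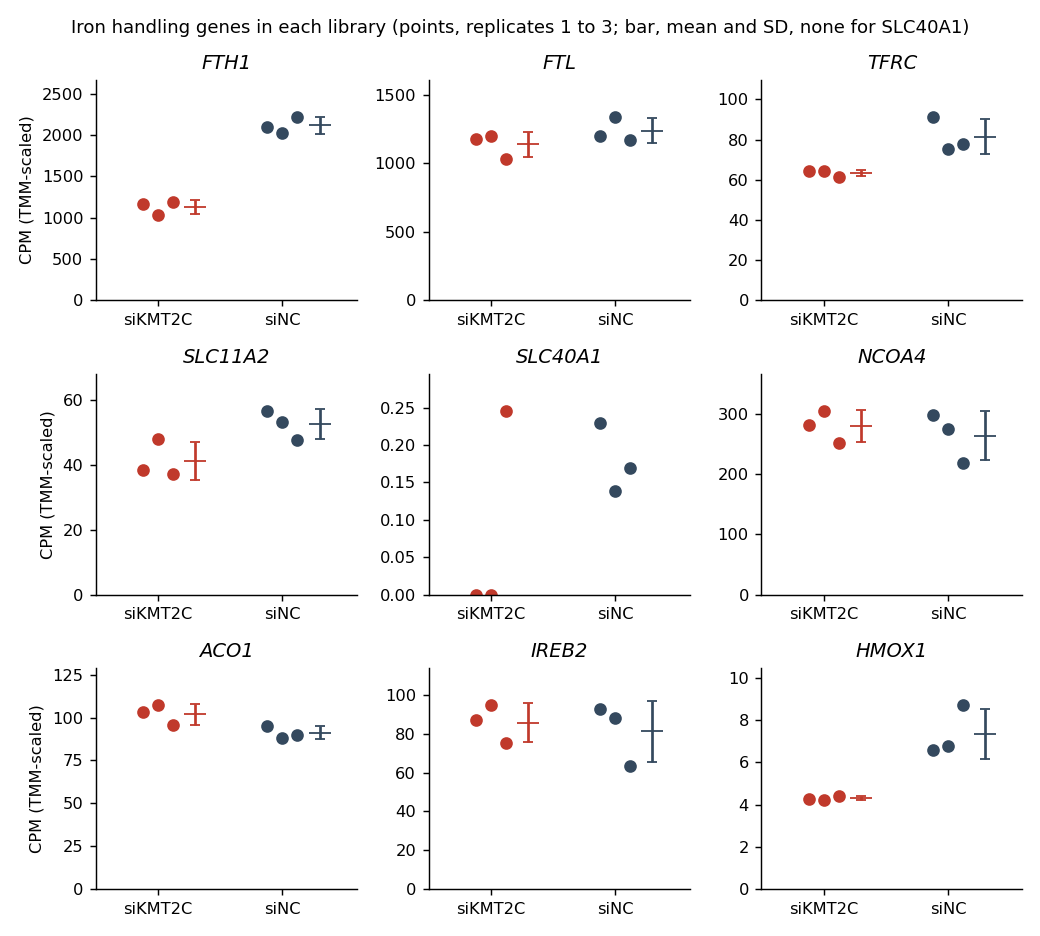
Level of each of the 9 iron genes in every library, as TMM-scaled CPM on linear axes that start at 0; points are replicates 1 to 3 of siKMT2C (red) and siNC (dark), and bars are the mean and SD. FTH1 is at 1030 to 1193 CPM in siKMT2C and 2025 to 2224 CPM in siNC, FTL overlaps between the groups, and SLC40A1 is close to 0.

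Among all 15063 genes tested, edgeR's quasi-likelihood test called 1.5% at a Benjamini-Hochberg adjusted p under 0.05, and 0.81% were called lower in siKMT2C. SLC40A1 did not pass the filter on low counts, and of the other 8 iron genes 1 was called, FTH1, which was lower. The groups did not overlap in 24.1% of all genes tested (12.3% lower and 11.8% higher in siKMT2C). Among the 8, FTH1, TFRC and HMOX1 were lower without overlap and ACO1 was higher without overlap. The median log2 fold change was -0.23 over the 8 and -0.0025 over all genes tested, and nothing is read from these counts because the genes were chosen on the same contrast. FTH1 was no longer called when siKMT2C replicate 1, 2 or 3 or siNC replicate 1 or 2 was left out. Its log2 fold change was then -0.93, -0.84, -0.95, -0.91 and -0.94 in that order, and leaving out siNC replicate 3 kept the call.

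FTH1 has many processed pseudogenes, intronless copies of its transcript, and reads can be assigned to a copy or to the parent. The table held 25 rows named FTH1P, of which 16 had any count and 7 were tested. Transcripts of those 7 were 96.0% to 97.8% identical to the longest FTH1 transcript. Between 24.5% and 40.8% of their 50-base windows occurred unchanged in it, so a read of that length from such a window has no unique origin. The read length was not given in the sources used here.

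All 7 tested FTH1P rows had a negative log2 fold change, from -1.28 for FTH1P8 to -0.92 for FTH1P23, with a median of -0.96. FTH1P7, the most counted, had 513, 639 and 440 counts in siKMT2C, against 1490, 991 and 1101 in siNC. EdgeR called FTH1P7, FTH1P8 and FTH1P10 lower, and each of these calls was lost in 5 of the 6 fits without 1 library, leaving out siNC replicate 3 being the exception. Over those fits the log2 fold change ran from -1.30 to -0.98 for FTH1P7, from -1.38 to -1.20 for FTH1P8 and from -1.08 to -0.89 for FTH1P10. FTH1P2 and FTH1P20 were lower without overlap and not called in the edgeR test used throughout. FTH1P2 was called by DESeq2, and by edgeR with no filter, with replicate number as a block and with GC content and length correction. FTH1P11 and FTH1P23 overlapped between the groups, and edgeR called both with replicate number as a block. FTH1P11 had 266, 355 and 147 counts in siKMT2C and 741, 485 and 363 counts in siNC. FTH1P23 had 223, 328 and 83 counts in siKMT2C and 565, 402 and 272 counts in siNC, so both rows were lowest in replicate 3 of either group. With 1 library left out the log2 fold change of FTH1P23 ran from -1.42 to -0.53.

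The FTH1P rows together took 7.85%, 10.8% and 6.40% of the FTH1 and FTH1P counts in siKMT2C, against 10.2%, 9.20% and 7.79% in siNC. With these rows summed into FTH1 the level was 1265, 1154 and 1274 CPM in siKMT2C and 2336, 2231 and 2412 CPM in siNC. The log2 fold change of the sum was -0.92 (SE 0.11), against -0.91 for FTH1 alone, so adding the copies to the parent left the difference almost as it was. Of 16 FTLP rows 1 was tested, FTLP3, with 72, 135 and 35 counts in siKMT2C and 105, 96 and 65 counts in siNC, which overlap. With the FTLP rows added, the log2 fold change of FTL was -0.12 (SE 0.12). BEST1, a chloride channel gene, overlaps FTH1 on the opposite strand, and strand use in counting was not given. BEST1 had 92 to 506 counts in siKMT2C and 222 to 342 in siNC, while FTH1 had 16031 to 19419 in siKMT2C and 29262 to 39488 in siNC.

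**Figure D2:**
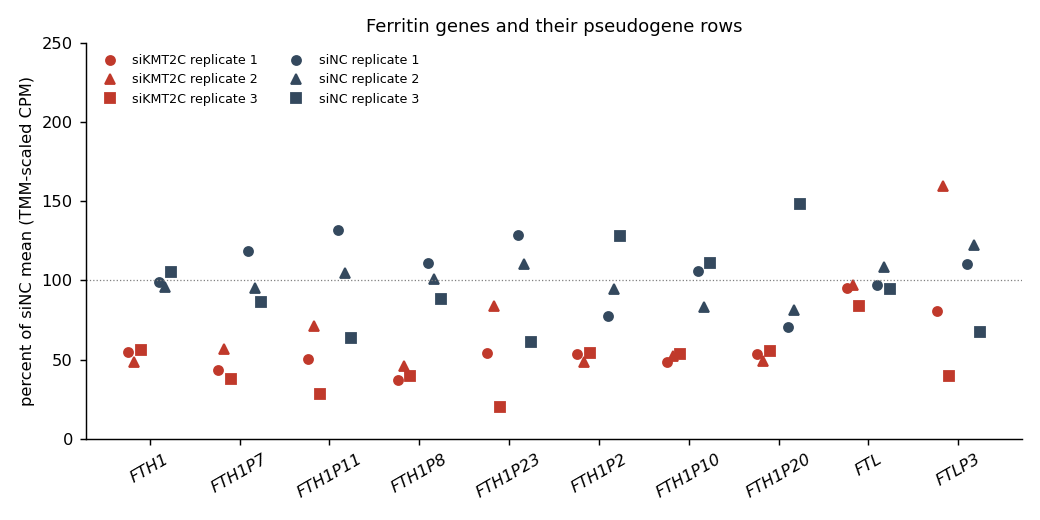
FTH1, FTL and their tested pseudogene rows in each library, as a percentage of the siNC mean of the same row (TMM-scaled CPM, linear axis from 0); red marks are siKMT2C and dark marks siNC, with one symbol per replicate number. FTH1 and its 7 pseudogene rows sit lower in siKMT2C on average, with overlap for FTH1P11 and FTH1P23, while FTL and FTLP3 overlap.

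TFRC (ENSG00000072274, chromosome 3, 196027183 to 196082189, minus strand), the transferrin receptor, was at 64.2, 64.6 and 61.5 CPM in siKMT2C, against 91.5, 75.2 and 77.9 CPM in siNC. The siKMT2C libraries were close together and all below the siNC libraries. Its log2 fold change of -0.36 (SE 0.13) did not pass the test over all genes. Leaving out siNC replicate 1, the highest library, gave -0.27.

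SLC11A2 (ENSG00000110911, chromosome 12, 50979401 to 51028566, minus strand), the proton-coupled iron transporter, was at 38.7, 48.2 and 37.2 CPM in siKMT2C and 56.8, 53.3 and 47.7 CPM in siNC. The siKMT2C replicate 2 library overlapped the lowest siNC library. SLC11A2 was not called, with a log2 fold change of -0.35 (SE 0.15), or -0.47 without siKMT2C replicate 2.

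SLC40A1 (ENSG00000138449, chromosome 2), the only known cellular iron exporter, was barely detected. It had 0, 0 and 4 counts in siKMT2C and 4, 2 and 3 counts in siNC. Both groups lie about the limit of 3 counts per library, equal to 0.169 to 0.208 CPM, so no fold change is given. At this depth a difference in ferroportin was not detectable.

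NCOA4 (ENSG00000266412, chromosome 10), the ferritin cargo receptor of autophagy, was at 281.0, 305.1 and 252.3 CPM in siKMT2C and 298.5, 274.2 and 219.1 CPM in siNC. The groups overlapped, with a log2 fold change of 0.08 (SE 0.15). Without siNC replicate 3, its lowest library, the value turned to -0.04.

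The RNA-binding regulators differed little between the groups. ACO1 (ENSG00000122729, chromosome 9) was at 103.3, 107.3 and 95.4 CPM in siKMT2C, against 95.3, 88.0 and 90.0 CPM in siNC. The lowest siKMT2C library exceeded the highest siNC library only in the decimals, and the log2 fold change of 0.16 (SE 0.12) was not called. IREB2 (ENSG00000136381, chromosome 15) was at 87.3, 95.0 and 75.2 CPM in siKMT2C and 92.7, 88.0 and 63.6 CPM in siNC, which overlap. Its log2 fold change of 0.08 (SE 0.18) turned to -0.08 without siNC replicate 3 and to -0.0018 without siKMT2C replicate 2.

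HMOX1 (ENSG00000100292, chromosome 22, 35380361 to 35394214, plus strand), which opens the haem ring and frees its iron, was scarce in both groups. It had 70, 66 and 72 counts in siKMT2C and 115, 98 and 155 counts in siNC. These correspond to 4.28, 4.24 and 4.42 CPM in siKMT2C, against 6.58, 6.78 and 8.73 CPM in siNC, with no overlap. HMOX1 was not called in the edgeR test used throughout, with a log2 fold change of -0.77 (SE 0.19). It was called under DESeq2 (-0.77), which called 5.68% of all genes. EdgeR with correction for GC content and length also called HMOX1 (-0.70), as it did 9.19% of all genes.

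**Figure D3:**
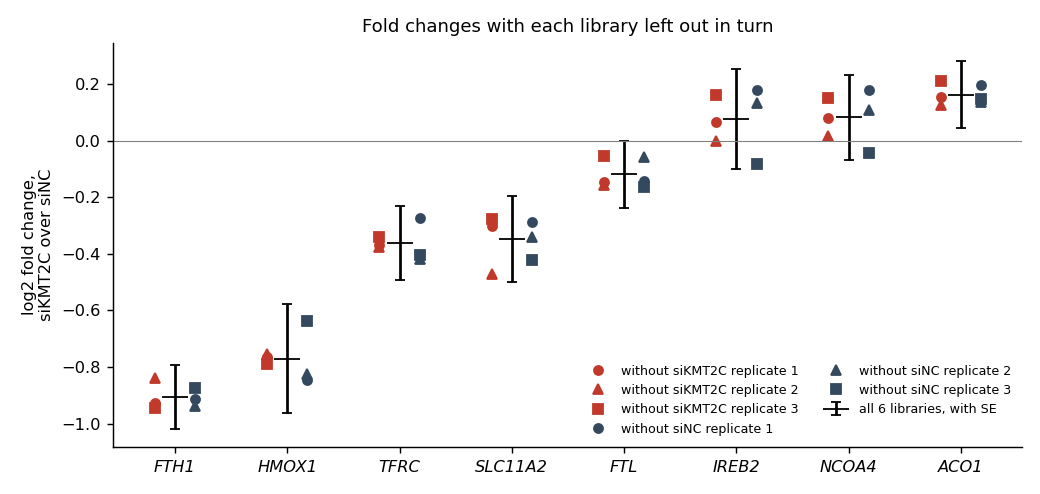
Log2 fold change of siKMT2C over siNC for the 8 tested iron genes with all 6 libraries (black, with SE) and with each library left out in turn (red, a siKMT2C library; dark, a siNC library). FTH1 stays between -0.95 and -0.84, HMOX1, TFRC, SLC11A2 and FTL stay below 0, ACO1 stays above 0, and IREB2 and NCOA4 change sign.

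Levels between genes were compared per length. On the deposited FPKM scale (fragments per kilobase, scaled to depth), FTL was highest at 1169 to 1338 in siKMT2C and 1350 to 1530 in siNC. FTH1 followed at 165.1 to 194.2 FPKM in siKMT2C and 333.1 to 369.3 FPKM in siNC. NCOA4 came next at 35.1 to 41.8 FPKM in siKMT2C and 31.1 to 42.2 FPKM in siNC. ACO1 averaged 10.7 FPKM in siKMT2C and 9.76 FPKM in siNC, IREB2 6.69 and 6.48 FPKM, TFRC 4.94 and 6.48 FPKM, and SLC11A2 2.29 and 2.98 FPKM in the same 2 groups. HMOX1 averaged 1.17 FPKM in siKMT2C and 2.03 FPKM in siNC, and SLC40A1 stayed at or below 0.0424 FPKM. On this FPKM scale TFRC and IREB2 could not be separated in siNC, with ranges of 5.94 to 7.27 and 5.08 to 7.38 FPKM.

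In siNC that order depended on the length used, for FTH1 and FTL and for TFRC, ACO1 and IREB2. The length that the deposited FPKM and counts imply for FTH1 was 6097 bases, whereas its longest GENCODE 29 transcript has 1229 bases and all its annotated exons together cover 2030 bases. For FTL the implied length and the longest transcript were both 878 bases. The implied length also exceeded all annotated exons for TFRC (12688 against 7887 bases), SLC11A2 (17797 against 10145), NCOA4 (7130 against 4079) and HMOX1 (3650 against 2405). The same held for SLC40A1 (5753 against 4330), IREB2 (12672 against 10806) and ACO1 (9413 against 7555). Beside their annotated exon lengths, the FPKM scale therefore places all of these genes low relative to FTL. Per kilobase of longest transcript, FTH1 stood at 838 to 971 CPM in siKMT2C and 1648 to 1809 CPM in siNC. FTL on the same scale stood at 1178 to 1368 CPM in siKMT2C and 1333 to 1526 CPM in siNC. On this scale FTH1 was below FTL in all 3 siKMT2C libraries and above it in all 3 siNC libraries. On the FPKM scale FTL was above FTH1 in all 6. Per kilobase of longest transcript, TFRC lay above IREB2 in siNC without overlap, at 14.7 to 17.9 against 10.0 to 14.6 CPM. ACO1 moved from rank 4 to rank 6 in siNC.

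**Figure D4:**
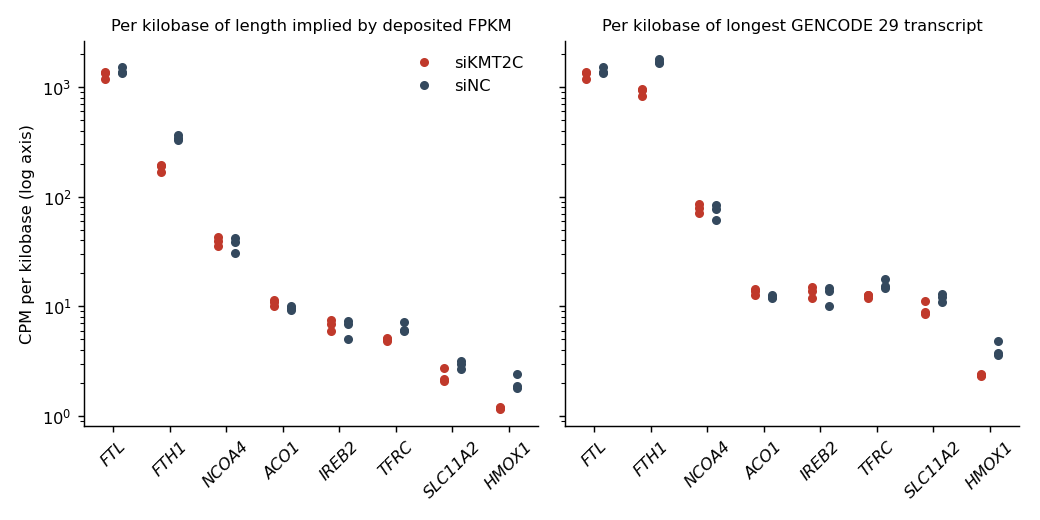
Per-length level of 8 iron genes in each library (TMM-scaled CPM per kilobase, log axis), with the length implied by the deposited FPKM on the left and the longest GENCODE 29 transcript on the right; red is siKMT2C and dark is siNC. On the right FTH1 is below FTL in siKMT2C and above it in siNC, and on the left FTL is above FTH1 in every library.

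Around these 9 genes, 10 lists of iron, haem and iron-sulfur genes were followed. Of 122 listed genes other than the 9, counted once each, 104 were tested. In the edgeR test over all genes 0 rose and 1 fell (background 0.69% higher and 0.81% lower), and 20 of the 104 had an unadjusted p under 0.05, against 16.9% of all genes tested. DESeq2, which called 5.68% of all genes, called 9 of them: LRP1, STEAP1, LCN2, BACH1, HSPA9, FDX1, POR, PTGS2 and GCLM. Over the 104 tested genes the median edgeR log2 fold change was -0.033, with 47 positive and 57 negative. The edgeR counts given list by list below are from this same test. EdgeR fits with other settings called up to 13 of the listed genes.

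The gene that fell was LRP1, an endocytic receptor that takes up haem bound to haemopexin among many other ligands. LRP1 was at 83.3, 65.3 and 85.2 CPM in siKMT2C, against 143.2, 167.9 and 235.0 CPM in siNC. The groups did not overlap, and siNC replicate 3 was the highest library. The log2 fold change was -1.22 (SE 0.21, n = 3 per group, edgeR adjusted p = 0.0352). The call was lost when siKMT2C replicate 1, 2 or 3 or siNC replicate 1 or 2 was left out, with log2 fold changes of -1.27, -1.11, -1.29, -1.37 and -1.28 and edgeR adjusted p from 0.0511 to 0.169.

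In the uptake list, 10 of 15 genes were tested, 5 of them positive. The metalloreductase relative STEAP1 was at 22.3, 24.7 and 17.7 CPM in siKMT2C and 12.7, 10.2 and 9.85 CPM in siNC. Its log2 fold change was 0.98 (SE 0.19, edgeR adjusted p = 0.0525), just short of the threshold, and the groups did not overlap. The siderophore-binding lipocalin LCN2 averaged 4.05 CPM in siKMT2C and 1.57 CPM in siNC (1.36, SE 0.29, edgeR adjusted p = 0.0655). SLC22A17, a lipocalin receptor, averaged 3.06 CPM in siKMT2C and 5.95 CPM in siNC (-0.96, SE 0.30, edgeR adjusted p = 0.166). The edgeR test used throughout, on all 6 libraries, called none of STEAP1, LCN2 and SLC22A17. An edgeR fit with replicate number as a block called STEAP1, LCN2 and SLC22A17. Fits with no filter and with GC content and length correction called STEAP1 and LCN2, as DESeq2 did, and the correction also called SLC22A17.

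Of 10 genes in the export and hepcidin list 4 were tested, and 0 were called by edgeR. The ferroxidase HEPHL1 had a log2 fold change of -0.75 (SE 0.24), and the hepcidin suppressor ERFE 1.19 (SE 0.34), at 1.02 CPM in siKMT2C and 0.437 CPM in siNC. ERFE had only 18, 16 and 15 counts in siKMT2C and 8, 5 and 9 in siNC, where counting error is large. BMP2 was at 0.04 (SE 0.17) and the BMP co-receptor NEO1 at -0.23 (SE 0.15). Of these, 2 had an unadjusted p under 0.05, against 16.9% of all genes tested. Without overlap 2 of the 4 were lower and 1 was higher, against 12.3% and 11.8% of all genes tested.

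Among 10 tested genes tied to the iron regulatory proteins and ferritin turnover, 0 were called, with 1 at an unadjusted p under 0.05. FBXL5, the iron-sensing adaptor that marks IREB2 for degradation, was at 96.8 CPM in siKMT2C and 106.1 CPM in siNC (log2 fold change -0.13, SE 0.17). HERC2, a ubiquitin ligase that acts on NCOA4, was at -0.36 (SE 0.15). The autophagy genes TAX1BP1 (0.36, SE 0.19) and RB1CC1 (-0.36, SE 0.19) lay on opposite sides of 0. The ferritin iron chaperones PCBP1 (-0.04, SE 0.18) and PCBP2 (0.24, SE 0.13) were not called, nor was their relative PCBP4 (0.14, SE 0.37). Other transcripts known for iron-responsive elements, EPAS1 (-0.17, SE 0.14), CDC14A (-0.34, SE 0.20) and HIF3A (-0.09, SE 0.38), were not called either. The hairpin search matched CDC14A and found no such letters in the longest transcripts of EPAS1 and HIF3A.

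In the haem breakdown and transport list, 5 of 10 tested genes were lower in siKMT2C without overlap and 0 were higher without overlap, against 12.3% lower and 11.8% higher of all genes tested. Over the list 5 of the 10 had a positive and 5 a negative log2 fold change, with a median of -0.15. EdgeR called 0 of the 10 (4 at an unadjusted p under 0.05, against 16.9% of all genes tested). BACH1, the haem-sensing repressor of HMOX1 and ferritin genes, was at 123.3, 136.8 and 131.6 CPM in siKMT2C, against 269.6, 225.0 and 173.8 CPM in siNC. Its log2 fold change was -0.77 (SE 0.17, edgeR adjusted p = 0.0731), and it was called without siNC replicate 3, its lowest siNC library (-0.93, edgeR adjusted p = 0.0123, over all settings 0.00614 to 0.288). The haem exporter ABCG2 (-0.72, SE 0.29) and the transporters FLVCR2 (-1.02, SE 0.39) and SLC46A1 (-0.53, SE 0.16) also had negative values. Haem synthesis had 0 calls among 12 tested genes and 1 at an unadjusted p under 0.05, with ALAD at -0.63 (SE 0.26), FECH at 0.34 (SE 0.17), UROD at 0.30 (SE 0.18) and TMEM14C at -0.39 (SE 0.20).

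The mitochondrial iron-sulfur list had 20 tested genes, 10 positive and 10 negative, and 0 were called by edgeR. At an unadjusted p under 0.05 were 4 of them, against 16.9% of all genes tested. The chaperone HSPA9, which hands over new clusters, averaged 650.4 CPM in siKMT2C and 461.2 CPM in siNC (log2 fold change 0.50, SE 0.11, edgeR adjusted p = 0.0736). The ferredoxin FDX1 averaged 51.8 CPM in siKMT2C and 33.4 CPM in siNC (0.63, SE 0.14, edgeR adjusted p = 0.0785). Both were higher in every siKMT2C library than in any siNC library, as was ISCA1 (0.49, SE 0.17), while BOLA3 (0.42, SE 0.18) overlapped. EdgeR fits with replicate number as a block and with GC content and length correction called HSPA9 and FDX1. The correction without the block also called ISCA1. The cluster scaffold ISCU was the 1 gene of this list lower without overlap (-0.15, SE 0.12), so 3 of 20 were higher and 1 lower, against 11.8% and 12.3% of all genes tested. In the cytosolic list of 11 tested genes MMS19 (0.33, SE 0.11), CIAPIN1 (0.38, SE 0.17), NUBP1 (-0.41, SE 0.20) and CIAO3 (-0.48, SE 0.28) had the smallest p-values, and edgeR called 0 (1 at an unadjusted p under 0.05). MMS19 was called by edgeR with the block and the correction together. With 1 library left out CIAO3 ran from -0.65 to -0.14 and NUBP1 from -0.57 to -0.26.

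**Figure D5:**
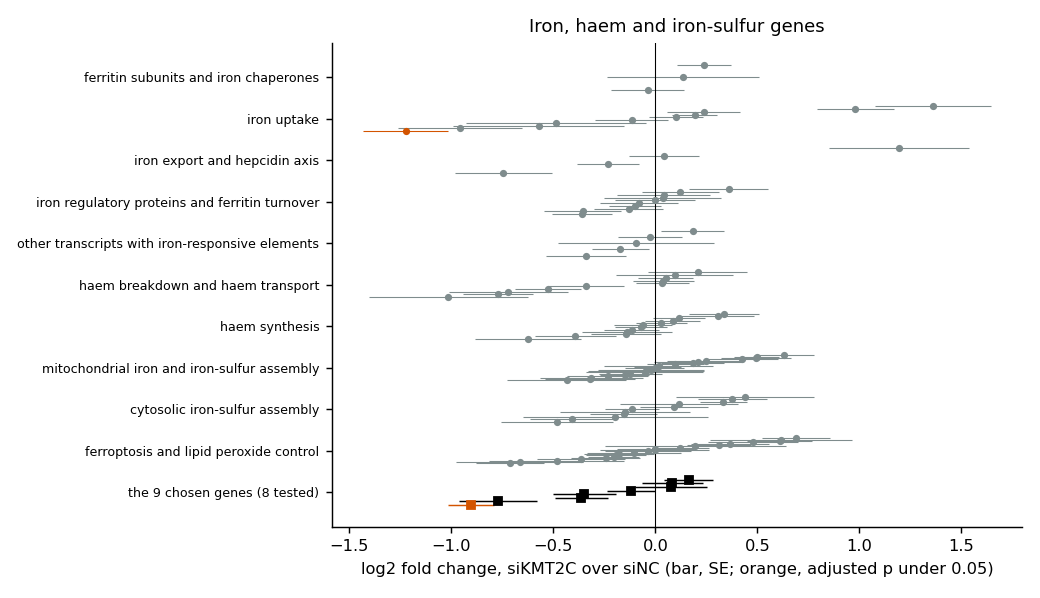
Log2 fold change of siKMT2C over siNC, with SE, for the tested genes of 10 iron lists and for the 8 tested iron genes at the bottom (squares); orange marks an edgeR adjusted p under 0.05. LRP1 at -1.22 in the uptake list and FTH1 at -0.91 are the 2 marked genes.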

How the data were processed

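Gene expression was measured by RNA sequencing in 3 siKMT2C and 3 siNC libraries. The authors deposited whole-number read counts per gene, and FPKM values for the same libraries, per the file headers. CASAVA 1.8 and TopHat2 2.0.6 are named in the submitters' processing notes, which list a mouse build although the gene identifiers are human. The counter, annotation and human build are not given in the sources used here. GENCODE 29 (GRCh38) held 99.55% of the 58302 identifiers and gives names, places and transcripts.

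Counts were tested with edgeR 4.0.16 in R 4.3.3 (filterByExpr, TMM scaling, robust quasi-likelihood F test), with Benjamini-Hochberg adjustment over the 15063 genes tested. A call is an adjusted p under 0.05, and an SE is the absolute log2 fold change over the square root of F. CPM use TMM-scaled library sizes of the genes kept. The test was checked on simulated data. Limma 3.58.1 and DESeq2 1.42.0 served as alternatives. Pseudogene transcripts were aligned with Biopython 1.88. With 3 libraries per group, counting error is small for abundant genes and large below about 10 counts.

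The 9 genes and the lists were chosen with earlier results of these data known. Beside the 9 and KMT2C, the text names called list genes, up to 4 further genes of each list with the smallest p, FTH1P and FTLP rows with at least 10 counts in 3 libraries, and the 5 protein-coding genes (mean log2 CPM of at least 1) nearest to FTH1 by root mean square difference of log2 CPM (0.5 counts added), centred per gene. The 4 most counted pseudogene rows were to be named; the others were named after their values were seen, as were BEST1, ISCU, single cell type markers and the list genes at 0. A list gene that this rule takes is not reported here.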

Additional observations from a re-analysis of the deposited data

How the results depend on the processing

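The log2 fold change of FTH1 with its pseudogene rows kept its sign in all 16 fits, and in the fits that left out 1 library it ran from -0.95 to -0.87, with the call lost in 4 of the 6; that of KMT2C ran from -1.51 to -1.36 there, with the call lost in 3. The count of genes called, 226, ran from 16 to 620 in those fits, the count among the 9 iron genes, 1, from 0 to 1, and among the other list genes, 1, from 0 to 2. DESeq2 called 855 genes, 2 iron genes (FTH1 and HMOX1) and 9 list genes. GC content and length correction called 1384, 2 and 13; the split was then 61.5% higher, against 46.0%. The list count was 4 with no filter. Same-numbered libraries did not run together throughout. Their deviations correlated at 0.020, 0.082 and 0.35 for replicates 1, 2 and 3, and 0.35 was the highest of all pairs between the groups. SiKMT2C replicate 2 correlated best with siNC replicate 1 (0.29). A shared source of the replicate 3 libraries was not tested. With the replicate block 968 genes and 10 list genes were called, and with block and GC correction together 1495 and 13; FTH1 remained the 1 iron gene called in both. Per longest transcript, 7 of 9 iron genes kept their rank by the mean over all 6 libraries, 9 within siKMT2C and 4 within siNC. Under GC correction the sign turned for PCBP1 (0.0057; with the block 0.010) and HIF3A (0.075; with the block 0.082). Fits that left out 1 library held both signs for 7 genes: NCOA4 from -0.043 to 0.18, IREB2 from -0.083 to 0.18, PCBP1 from -0.14 to 0.17, PCBP4 from -0.14 to 0.62, BMP2 from -0.0035 to 0.11, HIF3A from -0.41 to 0.29 and FTLP3 from -0.72 to 0.27. The cause was not tested. A fit without 1 library leaves 2 against 3, with fewer samples behind each call. Depth limits SLC40A1 and other genes near 3 counts per library.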

Other observations

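Among 11452 protein-coding candidates, the 5 genes whose centred log2 CPM ran closest to FTH1 over the 6 libraries were GPRC5A, SH3BP4, ZNF608, RHOB and KANK1, with root mean square differences of 0.058, 0.084, 0.088, 0.092 and 0.093 log2 units. These were the smallest differences by choice, and the libraries share the same 2 groups. GPRC5A, an orphan receptor induced by retinoic acid, was at 30.6, 27.8 and 32.2 CPM in siKMT2C, against 58.4, 59.0 and 57.3 CPM in siNC. RHOB, a small GTPase, was at 64.1, 60.5 and 75.9 CPM in siKMT2C, against 115.6, 116.0 and 143.7 CPM in siNC. Among the other iron genes HMOX1 was nearest to FTH1, at 0.13 log2 units, followed by TFRC at 0.30 and SLC11A2 at 0.35.

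Several genes of systemic iron control were at or near 0. HAMP, which encodes hepcidin, HJV, the ferroxidase HEPH and lactoferrin, LTF, had 0 counts in all 6 libraries, which allows up to 0.169 to 0.208 CPM per library for counting error only. In the ferroptosis and lipid peroxide list 20 of 23 genes were tested, and the edgeR test used throughout called 0. At an unadjusted p under 0.05 were 3 of the 20, against 16.9% of all genes tested. Cytochrome P450 reductase, POR, averaged 35.1 CPM in siKMT2C and 57.5 CPM in siNC (log2 fold change -0.71, SE 0.17, edgeR adjusted p = 0.0825). The prostaglandin synthase PTGS2 averaged 25.7 CPM in siKMT2C and 16.0 CPM in siNC (0.69, SE 0.17, edgeR adjusted p = 0.0917). The glutathione synthesis subunit GCLM averaged 28.7 CPM in siKMT2C and 18.8 CPM in siNC (0.61, SE 0.16, edgeR adjusted p = 0.112), and DHODH, a mitochondrial pyrimidine enzyme, had a value of 0.48 (SE 0.22). Of the genes named here, POR, PTGS2 and GCLM were called by edgeR with replicate number as a block and with GC content and length correction.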
